A study of Mus musculus with 4 samples.

Results

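Liver sinusoidal endothelial cells line the hepatic capillaries, and 10 genes that mark them were followed across adult age: Stab1, Stab2, Lyve1, Clec4g, Kdr, Pecam1, Cdh5, Oit3, Fcgr2b and Clec14a. The members were taken as all probe sets annotated to a single gene symbol among these 10, which gave 18 probe sets. All 10 genes passed the filter on level described below, of 11587 genes that passed it and 18193 genes measured. The samples came from the livers of C57BL/6J males, mice of a common inbred strain, aged 4, 8, 13 and 21 months, all on a low-fat diet eaten ad libitum. For each age the RNA of 6 livers was combined into a pool and hybridised to 1 oligonucleotide array, so each age is represented by 1 value per probe set.

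Without replicate arrays no difference between ages could be tested, no p-value is given, and the spread between mice is unknown. Values are log2 expression values on which a difference of 1 is 2-fold, and a difference was counted when it was at least 1.5-fold, which for values with 2 decimals means a log2 difference of 0.59 or more. A gene was kept when its mean over the 4 arrays reached 3.74, the median of such means over all probe sets other than controls. The array medians lay between 3.73 and 3.76. Pearson's r for the 5 pairs of ages compared below, across probe sets that are not independent replicates, was 0.995 to 0.996. Whole liver was measured, so fewer cells of a type and less RNA per cell cannot be told apart.

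Sinusoidal endothelial cells differ from other capillary endothelium in having open pores and no continuous basement membrane, and in clearing waste molecules from blood at a high rate. That clearance rests on scavenger and lectin receptors such as the stabilins and on the Fc receptor encoded by Fcgr2b, which takes up immune complexes. The cells also carry the general endothelial programme, in which the VEGF receptor encoded by Kdr passes on growth and survival signals and VE-cadherin, encoded by Cdh5, holds neighbouring cells together. Loss of pores and gain of features of continuous capillaries, called capillarisation, has been described in old livers.

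The label of the gene group was compared with further markers. Of 20 other genes enriched in liver sinusoidal endothelium, 19 were measured and all 19 passed the filter, among them the mannose receptor gene Mrc1, the lymphatic-type VEGF receptor gene Flt4 and the clotting factor gene F8. Of 25 genes of endothelium in general 23 passed. Of 9 measured genes listed for continuous or large vessel endothelium only 3 passed, Vwf, Selp and Plvap, the last also a gene of pore diaphragms. Cd34, Sele, Vwa1, Efnb2, Bmx and Gja5 lay below the filter. Hepatocyte genes, which mark the labelled tissue, passed in 11 of 11 cases. Beside these counts, 11587 of all 18193 measured genes passed. Platelet genes passed in 6 of 7 cases, B cell genes in 4 of 7 and T and NK cell genes in 4 of 8. Passing the filter is therefore not by itself a mark of a cell type.

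Across the whole span of age the 10 genes lay close to their young adult level. At 21 vs 4 months the 1.5-fold rule was met by none of the 10 genes in either direction, where 2.11% of all 11587 kept genes were higher by that rule and 0.423% lower. Their median log2 difference was 0.05, beside 0.01 over all kept genes, and the 10 values ran from -0.15 for Lyve1 to 0.16 for Pecam1. All 10 lay inside the interval from -0.27 to 0.37 that held the kept genes between the 5th and the 95th percentile. By sign alone 8 were above their 4-month level at 21 months and 2 below it, while 51.4% of all kept genes were above and 45.2% below.

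**Figure D1:**
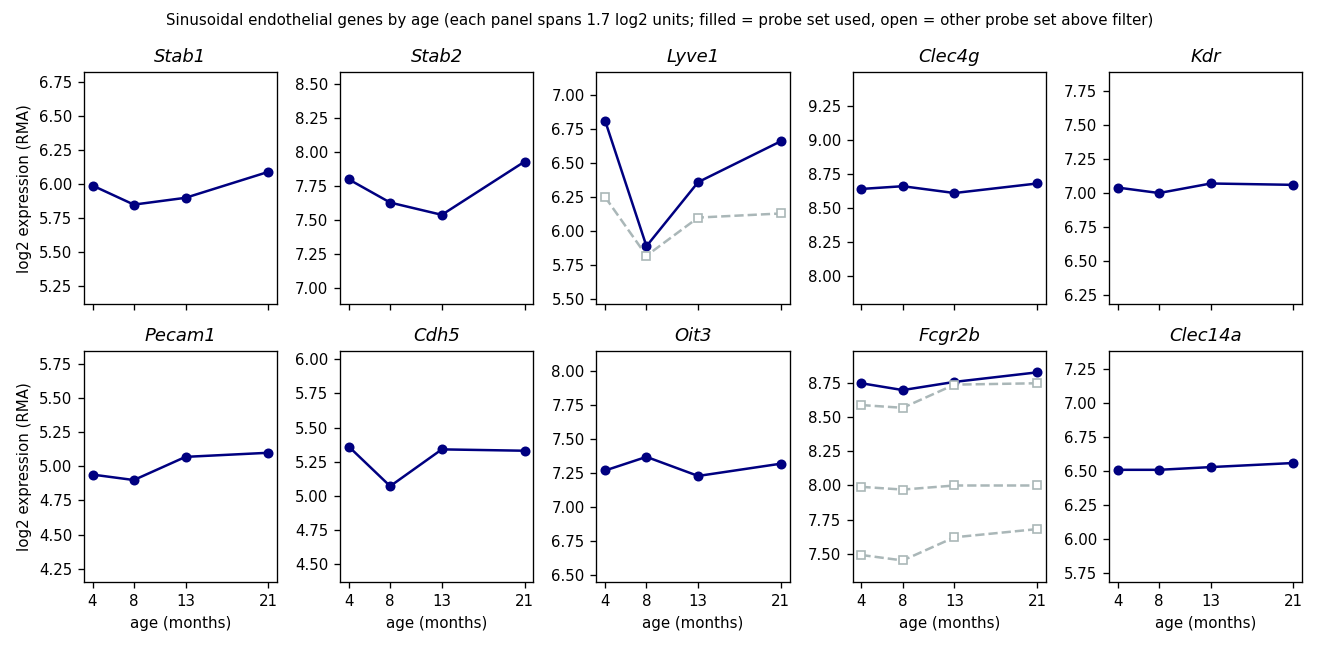
Log2 expression (y axis, RMA values) against age in months (x axis) for the 10 genes, 1 pooled array per age. Filled circles are the probe set used for the gene and open squares its other probe sets above the filter, and every panel spans the same height. Lyve1 was at 5.89 at 8 months, its low point, while Clec14a lay between 6.51 and 6.56.

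Steps between successive ages were small too, apart from Lyve1. At 8 vs 4 months 1 of the 10 genes, Lyve1, was at least 1.5-fold lower and none was higher, against 0.354% of kept genes lower and 0.501% higher. The members' median was -0.045. At 13 vs 8 months none of the 10 passed in either direction, where 0.716% of kept genes were higher and 0.362% lower, and the median was 0.055. At 21 vs 13 months again none passed, with 1.47% of kept genes higher and 0.457% lower, and the median was 0.07. At 13 vs 4 months none passed, with 0.837% of kept genes higher and 0.457% lower, and the median was -0.025. The medians over all kept genes in these 4 comparisons lay between 0.00 and 0.01. A smaller size, 0.32 on the log2 scale, was passed by Lyve1 as higher at 13 vs 8 months (3.92% of kept genes), by Stab2 as higher at 21 vs 13 months (6.12%) and by Lyve1 as lower at 13 vs 4 months (3.14%). None of the 10 was lower by 2-fold at 8 vs 4 months, which 0.0259% of kept genes were. These comparisons share arrays. A deviation of the 8-month pool enters 8 vs 4 and 13 vs 8 months with opposite signs, and a deviation of the 13-month pool does the same in 13 vs 8 and 21 vs 13 months.

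**Figure D2:**
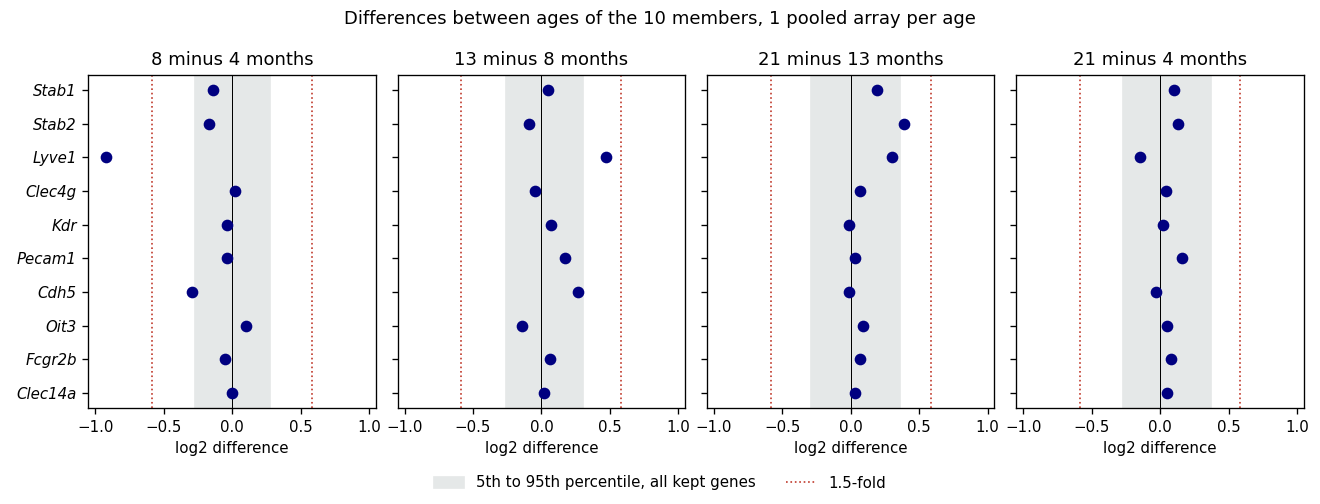
Log2 difference (x axis) of each of the 10 genes (rows) for 4 pairs of ages, the later minus the earlier. The grey band holds the kept genes between the 5th and 95th percentile and dotted lines mark 1.5-fold. Lyve1 at -0.92 for 8 minus 4 months is the point outside the dotted lines, and all 10 points for 21 minus 4 months lie in the band.

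The range of a gene over the 4 ages, its highest minus its lowest log2 value, sets the members against the rest of the array. The members' ranges ran from 0.05 for Clec14a to 0.92 for Lyve1 with a median of 0.17, beside a median of 0.22 over all kept genes. Of the 10 members 3 had a range of at most 0.1, namely Clec14a, Clec4g and Kdr, and 14.4% of kept genes did. At most 0.3 was reached by 8 of the 10, against 72.3% of kept genes. The members outside were Stab2 with 0.39 and Lyve1, whose range was wider than that of 98.2% of kept genes. As to the order of ages, 6 members were lowest at 8 months, where 26.2% of kept genes had their lowest value, and 6 were highest at 21 months, where 30.3% had their highest. None was lowest at 21 months, against 25.1% of kept genes. Without replicates it cannot be said which neighbouring ages in such an order differ beyond the spread between pools.

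**Figure D3:**
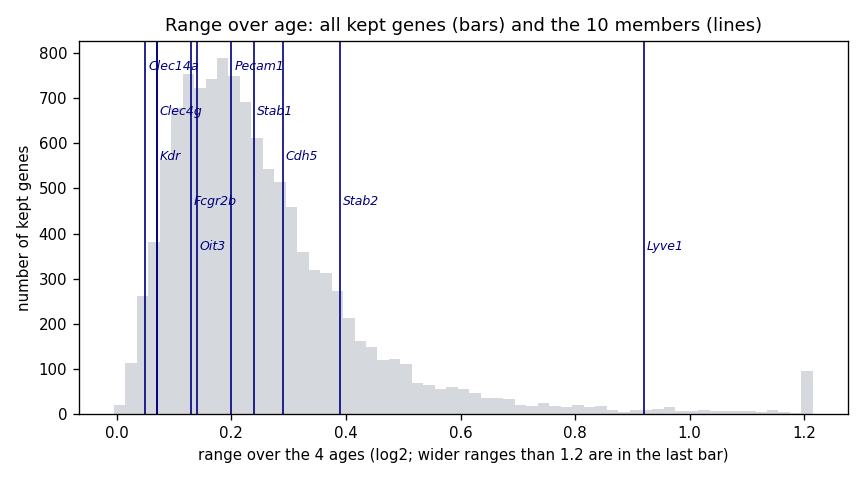
Number of kept genes (y axis) by range over the 4 ages in log2 units (x axis), with the 10 members as vertical lines. Clec14a at 0.05 lies at the narrow end and Lyve1 at 0.92 lies in the upper tail.

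The stabilins are large scavenger receptors that take up hyaluronan, modified lipoproteins and other waste from the sinusoidal blood. Stab2 was at 7.80, 7.63, 7.54 and 7.93 at 4, 8, 13 and 21 months. Its paralogue Stab1, which is also expressed by some macrophages, was at 5.99, 5.85, 5.90 and 6.09. Both were below their 4-month level at 8 and at 13 months and highest at 21 months. Stab2 at 21 vs 13 months differed by 0.39, which is 1.31-fold and lies above the 95th percentile of 0.36 over kept genes. Stab1 differed by 0.19 for the same pair, inside that interval. At 21 vs 4 months the differences were 0.13 for Stab2 and 0.10 for Stab1. Each stabilin had a single probe set, so no other probe set could be set beside these values.

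The promoters of both stabilins, which shared the sign of their difference from 4 months at each later age, are shown beside those of Kdr and Clec14a, whose ranges were among the 3 narrowest. The sequences run from 250 bases before to 50 bases after the gene start on GRCm38.p6, taken from RefSeq, 5′ to 3′ on the gene's strand, and 6 of the 10 members had an entry. Capitals mark GGAAG or its reverse complement CTTCC, a longer form of the GGAA core bound by ETS family factors, which act widely in endothelium. GGAA followed by another letter was not counted and is left unmarked.
Stab1, chr14:31168592-31168891, minus strand: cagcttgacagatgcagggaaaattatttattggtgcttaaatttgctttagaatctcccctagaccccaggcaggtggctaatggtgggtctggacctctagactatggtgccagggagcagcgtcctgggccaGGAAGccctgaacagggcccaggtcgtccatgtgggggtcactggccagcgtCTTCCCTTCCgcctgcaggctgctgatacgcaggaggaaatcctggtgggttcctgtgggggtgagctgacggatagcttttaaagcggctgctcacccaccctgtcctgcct
Stab2, chr10:87007893-87008192, minus strand: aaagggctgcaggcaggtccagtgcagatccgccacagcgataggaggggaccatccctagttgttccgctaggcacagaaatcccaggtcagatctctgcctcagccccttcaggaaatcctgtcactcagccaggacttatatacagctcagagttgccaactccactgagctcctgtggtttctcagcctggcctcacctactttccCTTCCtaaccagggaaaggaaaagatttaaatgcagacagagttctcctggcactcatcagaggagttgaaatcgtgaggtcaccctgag
Kdr, chr5:75978406-75978705, minus strand: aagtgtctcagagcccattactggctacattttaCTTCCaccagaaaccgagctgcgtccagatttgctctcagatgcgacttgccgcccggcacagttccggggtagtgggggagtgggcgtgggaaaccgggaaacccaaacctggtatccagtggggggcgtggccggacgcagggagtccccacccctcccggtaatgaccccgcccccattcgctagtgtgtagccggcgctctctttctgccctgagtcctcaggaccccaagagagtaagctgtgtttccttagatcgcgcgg
Clec14a, chr12:58269209-58269508, minus strand: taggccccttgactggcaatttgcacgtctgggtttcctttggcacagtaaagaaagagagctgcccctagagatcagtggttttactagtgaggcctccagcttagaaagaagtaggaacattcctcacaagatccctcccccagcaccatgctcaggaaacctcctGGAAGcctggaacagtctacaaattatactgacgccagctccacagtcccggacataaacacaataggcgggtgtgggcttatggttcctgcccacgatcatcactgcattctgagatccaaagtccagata
GGAAG or CTTCC was found 3 times in the Stab1 window, with matches starting at -115, -63 and -58 from the gene start. It was found 1 time each for Stab2 at -40, Kdr at -216 and Clec14a at -82. All 6 member promoters held it on either strand, and so did 71.4% of all 32851 promoter windows, so the match is common in windows of this length. The GATA letters AGATAA, also read as TTATCT, were in 0 of the 6 windows and in 11.2% of all. The forkhead letters TGTTTA, also read as TAAACA, were in 2 of the 6, Clec14a and Fcgr2b, and in 13.4% of all. Matches to different motifs did not overlap each other in these 6 windows. Within 1 motif, the GGAAG matches of Clec4g starting at -85 and -81 share a base.

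Lyve1 encodes a hyaluronan receptor of lymphatic and sinusoidal endothelium that is also found on some tissue macrophages. It was at 6.81, 5.89, 6.36 and 6.66 at 4, 8, 13 and 21 months. The 8-month pool was the low one, and the values at 13 and 21 months lay between it and the 4-month value. At 8 vs 4 months the difference was -0.92, a level 0.529 of that at 4 months. Another Lyve1 probe set was at 6.25, 5.82, 6.10 and 6.13. It was lowest at 8 months too, but its difference at 8 vs 4 months was -0.43, short of 1.5-fold, so the 2 probe sets share the direction in all 5 comparisons and not the size. At 21 vs 4 months they differed by -0.15 and -0.12.

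No other member was as far below its 4-month level at 8 months as Lyve1. Oit3 and Clec4g were above theirs, by 0.10 and 0.02, and Clec14a was equal to its own. At 8 vs 4 months Cdh5 was at -0.29, the next lowest, followed by Stab2 at -0.17 and Stab1 at -0.14. Without Lyve1 the median of the other 9 members was -0.04. Macrophage genes stood lower at 8 months as well. By sign 15 of 16 macrophage genes were below their 4-month level, and so were 7 of the 10 members. The share of all kept genes below at this pair is not given here, so the members' sign count does not set them apart. Their median of -0.045 lay between the quartiles of -0.09 and 0.09 over all kept genes. Among the macrophage genes 1, the scavenger receptor gene Marco, was at least 1.5-fold lower at -1.46, where 0.354% of kept genes were. The macrophage median was -0.405, beside 0 over all kept genes, whose 5th percentile was -0.27. Macrophage levels summed on the linear scale were 2687 at 8 months and 3576 at 4 months, and none of the 16 lay below the filter. The list for lymphatic endothelium, which also expresses Lyve1, had a median of -0.03 for the same pair over 5 genes. That median was the value of Prox1, and how far Prox1 stands for lymphatic vessels in whole liver was not tested. Flt4 is also in the list of other sinusoidal genes, Sox18 in the general endothelial list and Reln in the stellate list. Pdpn lay near the filter, at 3.78 and 3.79 at 4 and 8 months, so this median is not particular to lymphatic vessels. The part of macrophages in the Lyve1 difference was not tested.

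The 5 kept genes whose profile over the 4 ages was most like that of Lyve1 were Cyp2b10, Hamp2, Nt5e, Ip6k2 and Katnal1. Likeness was the root mean square distance between profiles centred on their own mean, which was 0.054 for Cyp2b10, an inducible cytochrome P450 of hepatocytes, and 0.092 for Hamp2, of the hepcidin family. Cyp2b10 was at 7.79, 6.82, 7.43 and 7.70 at the 4 ages. Nt5e, which encodes the ectonucleotidase CD73, had a distance of 0.109 and was at 5.42, 4.80, 5.18 and 5.42. Ip6k2, an inositol phosphate kinase gene, had 0.114, and Katnal1, of the katanin family, had 0.118. With 4 ages and 11587 genes close profiles are easily found, and none of the 5 is an endothelial gene of the lists used here.

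Clec4g encodes LSECtin, a C-type lectin of sinusoidal endothelium in liver and lymph node. It was at 8.64, 8.66, 8.61 and 8.68, a range of 0.07 that was wider than that of only 4.94% of kept genes. A second Clec4g probe set lay below the filter, at 3.41, 3.03, 3.06 and 3.28. Oit3 encodes a secreted zona pellucida domain protein that marks sinusoidal endothelium in liver, and it was at 7.27, 7.37, 7.23 and 7.32. It was the only member with its highest value at 8 months, and at 8 vs 4 months it differed by 0.10. At 21 vs 4 months Clec4g differed by 0.04 and Oit3 by 0.05.

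Fcgr2b encodes the inhibitory Fc receptor for IgG, which sinusoidal endothelium, B cells and macrophages express. The probe set used was at 8.75, 8.70, 8.76 and 8.83 at 4, 8, 13 and 21 months. At 21 vs 4 months it differed by 0.08, which is 1.06-fold. Of 5 probe sets 4 passed the filter, and all 4 were above their 4-month value at 21 months, by 0.01 to 0.19. The largest of these, 0.19, came from a probe set whose suffix, _x_at, marks probes that may bind other transcripts. The probe set used carries the suffix _s_at for probes shared between transcripts. The next largest difference, 0.16, came from a probe set with neither suffix. The probe set below the filter was at 2.38, 2.38, 2.90 and 2.71.

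The activating Fc receptor genes gave larger differences than Fcgr2b between the 21-month and 4-month pools, and Fcgrt did not. At 21 vs 4 months all 4 of the activating receptors and their signalling chain were at least 1.5-fold higher: Fcgr4 by 0.97, Fcgr1 by 0.90, Fcgr3 by 0.80 and the chain gene Fcer1g by 0.61. By that rule 2.11% of kept genes were higher. Fcgr4 was at 5.34, 5.11, 5.80 and 6.31 at the 4 ages, and Fcgr3 at 5.54, 5.49, 5.80 and 6.34. Both were highest at 21 months and slightly lower at 8 than at 4 months. Fcgrt, which encodes the neonatal Fc receptor that recycles IgG and is expressed by hepatocytes and endothelium, was at 9.30, 9.42, 9.37 and 9.25, a difference of -0.05 at 21 vs 4 months. Whether Fcgr2b differs from the other receptors beyond the spread between mice was not tested. Mouse Fcgr2b and Fcgr3 have closely similar extracellular parts, so probes of one may bind the other to an extent not known here.

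**Figure D4:**
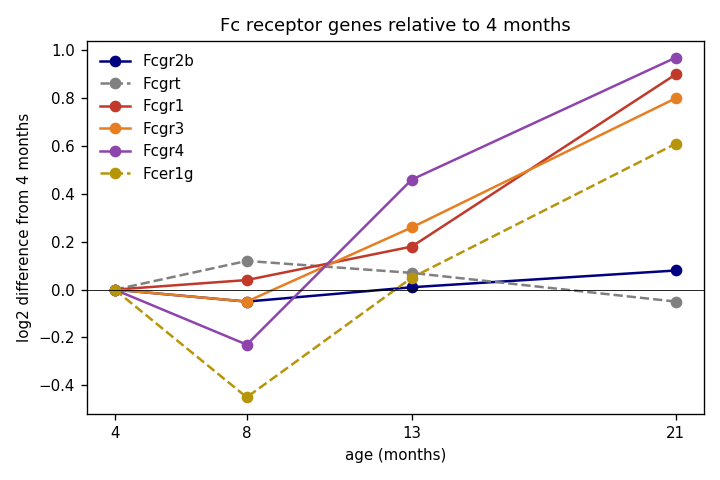
Log2 difference from 4 months (y axis) against age in months (x axis) for 6 Fc receptor genes, 1 pooled array per age. Fcgr2b and Fcgrt end at 0.08 and -0.05 at 21 months, while Fcgr1, Fcgr3, Fcgr4 and Fcer1g end between 0.61 and 0.97.

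Kdr encodes VEGF receptor-2, the main signalling receptor for VEGF in endothelium. It was at 7.04, 7.00, 7.07 and 7.06 at the 4 ages. Clec14a, a C-type lectin domain protein of endothelium involved in vessel sprouting, was at 6.51, 6.51, 6.53 and 6.56, and its range of 0.05 was the narrowest of the 10. Both were nearly level, and at 21 vs 4 months Kdr differed by 0.02 and Clec14a by 0.05. A second Clec14a probe set lay below the filter, at 3.38, 3.18, 3.30 and 3.51.

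Pecam1 and Cdh5 encode adhesion proteins of endothelial contacts, and Pecam1 is also found on platelets and leukocytes. Pecam1 was at 4.94, 4.90, 5.07 and 5.10, and its difference of 0.16 at 21 vs 4 months was the largest higher one of the 10 members. The 2 older pools lay above the 2 younger pools. Cdh5 was at 5.36, 5.07, 5.34 and 5.33, so its 8-month value stood apart while the other 3 lay within a few hundredths of each other. At 8 vs 4 months Cdh5 was at -0.29, just below the 5th percentile of -0.27 over kept genes. Its second probe set lay below the filter, at 2.55, 2.63, 2.41 and 2.44, and was not lowest at 8 months. Of platelet genes, measured because they could carry Pecam1, 6 passed the filter, with a median of -0.025 at 21 vs 4 months and none past 1.5-fold. They differed both ways, with Pf4 higher by 0.31, Itgb3 by 0.29 and Gp9 at -0.38. At 13 vs 4 months, where Pecam1 was higher by 0.13, the 6 platelet genes had a median of 0.095. Of these, 5 were above and 1 below their 4-month level, and only Itgb3 was at least 1.5-fold higher, with 0.61. By that rule 0.837% of kept genes were higher, and the quartiles over all kept genes at this pair were -0.09 and 0.10. At 21 vs 13 months, where Pecam1 was higher by 0.03, the platelet median was -0.23, beside 0.01 over all kept genes. Gp1bb, at 3.73 at 4 months, and Gp9, at 3.77 at 21 months, lay near the filter. The part of platelets in the Pecam1 values was not tested.

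Further genes known from the same cells were measured beside the members. Over 19 further sinusoidal endothelial genes the median at 21 vs 4 months was -0.05, with 1 at least 1.5-fold higher and none lower. Of all kept genes 2.11% were higher by that rule and 0.423% lower. The 1 higher gene was Clec1b, by 0.79, at 7.05, 6.88, 7.33 and 7.84 at the 4 ages. It encodes the podoplanin receptor CLEC-2, which platelets and mouse Kupffer cells also express. The next highest was Ctsl, a lysosomal protease gene, with 0.10. At the low end were Wnt2, an endothelial signal to hepatocytes near the central vein, at -0.25, and the orphan receptor gene Gpr182 at -0.17. Gata4, which encodes a transcription factor that sets the sinusoidal identity, was at 5.80, 5.94, 5.88 and 5.87, and Mrc1 at 7.96, 7.73, 7.82 and 8.04.

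Over 23 genes of endothelium in general the median at 21 vs 4 months was -0.03, and none passed 1.5-fold in either direction. Sox18, a transcription factor gene of vessel and lymphatic endothelium, was highest with 0.30 and Icam2, an adhesion gene, next with 0.24. Erg, an ETS family factor gene, was at -0.29, and Nos3, which encodes endothelial nitric oxide synthase, at -0.26. Cav1, the gene for the main protein of caveolae, reached 1.5-fold at 13 vs 4 months with 0.60 and was at -0.79 at 21 vs 13 months, while its 21-month value was within 0.19 of that at 4 months. It was named for these values after they were seen.

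Genes listed for continuous or large vessel endothelium had a median of 0.24 at 21 vs 4 months over only 3 kept genes, none past 1.5-fold. Capillarised sinusoids come to resemble the continuous type. The differences were 0.33 for Vwf, 0.24 for Plvap and 0.08 for Selp, so the median was the value of Plvap. As a gene of pore diaphragms, Plvap does not mark continuous endothelium alone, and capillarisation was not tested. Vwf, the von Willebrand factor gene, was at 4.11, 4.43, 3.86 and 4.44 and Plvap, a gene of the diaphragms of endothelial pores, at 7.69, 7.59, 7.74 and 7.93. Cd34 lay below the filter, at 3.18, 3.14, 3.23 and 3.68, so its higher value at 21 months cannot be told from background. The VEGF and angiopoietin ligands and receptors, of which Flt1, Tek, Tie1 and Flt4 are also in other endothelial lists, had a median of 0.08 over 11 genes and none past 1.5-fold. Of them Nrp2, a VEGF co-receptor gene, was higher by 0.49 and Nrp1 by 0.29, and Vegfa was at 7.80, 7.91, 7.77 and 7.73. Pgf, which encodes placental growth factor, was at -0.33, with a level of 3.72 at 21 months, near the filter. The lymphatic genes, several of which are also in other lists, had a median of 0.15 over 5 genes, led by Sox18 and by Pdpn with 0.27. That median was the value of Prox1.

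The other cell types of the liver were measured beside the members. Macrophage genes, including those of Kupffer cells, had a median of 0.72 at 21 vs 4 months. By the 1.5-fold rule 10 of 16 were higher and none lower, where 2.11% of kept genes were higher and 0.423% lower. Vsig4 and Marco were just short of it at 0.58. The summed level of the macrophage genes was 6004 at 21 months and 3576 at 4 months. Mpeg1 was higher by 1.39 and Cd5l by 1.03, while Cd163 was at -0.34. Over the same pair the summed level of the 10 endothelial members was 1740 at 21 months and 1677 at 4 months. The difference between these lists was not tested. Fcgr1 is in both the macrophage and the Fc receptor list. Stab1, Lyve1, Fcgr2b and Pecam1, which macrophages can express, had differences of 0.10, -0.15, 0.08 and 0.16, and the part of macrophages in these was not tested.

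**Figure D5:**
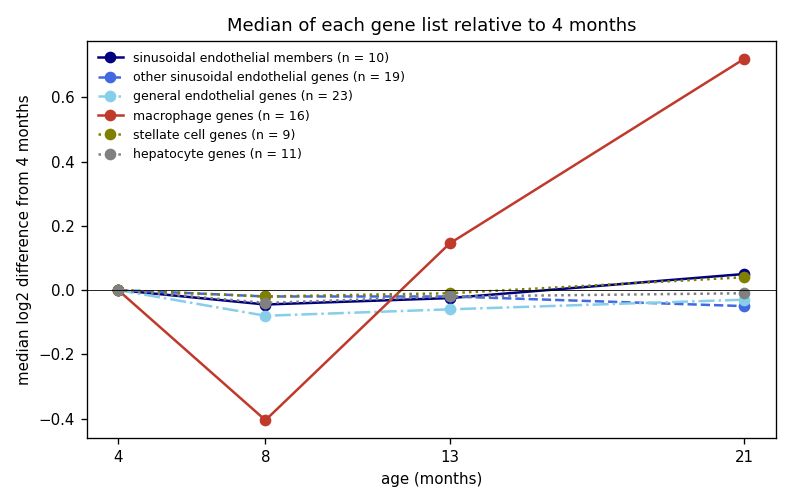
Median log2 difference from 4 months (y axis) against age in months (x axis) for the 10 members and 5 other gene lists, 1 pooled array per age. The 3 endothelial lists stay within 0.08 of 0, while the macrophage list is at -0.405 at 8 months and 0.72 at 21 months.

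The remaining lists differed little between 21 and 4 months. The median was 0.04 over 9 stellate cell genes, where Hgf was higher by 0.34 and Pdgfrb by 0.29, and -0.01 over 11 hepatocyte genes, where Tat was at -0.35. B cell genes had a median of 0.085 over 4 kept genes and T and NK cell genes 0.04 over 4, none past 1.5-fold. The bile duct list had 0.15 over 3 kept genes. No kept gene of these lists was at least 1.5-fold higher or lower at 21 vs 4 months. Gzma, a cytotoxic granule gene of the T and NK list, lay below the filter on its mean, at 3.09, 2.98, 3.28 and 4.14 at 4, 8, 13 and 21 months, so that its value at 21 months alone was above 3.74.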

How the data were processed

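Liver RNA pools of 4, 8, 13 and 21 months were each measured on 1 array, and groups follow the labelled age. The deposited log2 values of 45101 probe sets, from 1.22 to 13.7, were made by the authors with RMA, per the submitters' processing notes. RMA corrects background, brings the arrays' distributions together and summarises probes on the log2 scale, so a shift of most genes would not be visible and differences of dim probe sets are compressed. The sources used here do not give its version. No detection calls were used.

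Genes were assigned to probe sets from the platform annotation: 34945 had 1 symbol, 932 several, 9160 none or were not listed, and 64 were controls. For a gene the probe set with the highest mean was used, and genes with a mean of at least 3.74 were kept. Members and gene lists were chosen with earlier results of these data known. The text names all members, up to 2 genes each way per list by their difference at 21 vs 4 months, the 5 profiles nearest to the member with the widest range, and further list genes, chosen after their values were seen, to show a list's levels. No test was run, since each age has 1 array. Counting was tested on simulated data. Alternatives were other probe set rules, filters, normalizations, fold sizes and the mean over members. Tools were limma 3.58.1 in R 4.3.3, for alternative normalizations, and pandas 2.3.3, numpy 2.4.6 and matplotlib 3.10.9 in Python 3.11.15.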

Additional observations from a re-analysis of the deposited data

How the results depend on the processing

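Centring arrays on their medians, quantile normalization, cyclic loess, no filter and a filter at the 75th percentile left every count of members equal or within 1.5 times and moved no member's difference or median by 0.1 or more, though the stricter filter kept only 8 members, without Pecam1 and Cdh5. The choice of Lyve1 probe set mattered most. At 8 vs 4 months Lyve1 was at -0.68 with the mean of its probe sets and at -0.43 with the dimmer, and with the dimmest probe set of each gene, which left 6 members above the filter, the count of members at least 1.5-fold lower was 0. Of the members' single differences 10 moved by 0.1 or more and 40 did not with the mean of a gene's probe sets, and 4 did and 26 did not with the dimmest. With a 2-fold rule that count of lower members was 0 as well. With a smaller size, 0.32 on the log2 scale, 1 member was higher at 13 vs 8 months, 1 was higher at 21 vs 13 months and 1 was lower at 13 vs 4 months. The mean over members at 8 vs 4 months was -0.153. No paired analysis was possible because each age has 1 array. Signal near the low end of the scale cannot be told from background, which limits Cdh5, Pecam1 and the dim probe sets.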
